A study of Rattus norvegicus with 4 samples.

Results

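The insulin-like growth factor (IGF) binding proteins, the 2 IGF receptors and the receptor substrate Irs1 were compared between RTEC11 cells held at 39 °C and at 33 °C. The members were 10 genes, Igfbp1 to Igfbp7, Igf1r, Igf2r and Irs1. They were chosen by name, and every probe set that the platform annotation gives to exactly 1 of these symbols was used. These were 10 of the 10411 genes that such a probe set reads, with 15 of 15866 probe sets once 57 control probe sets were left out. RTEC11 is a conditionally immortalized cell line from the trachea of transgenic rats, and the cells at both temperatures carry the large T antigen of simian virus 40 in a temperature-sensitive form, which when active holds p53 and the retinoblastoma proteins inactive. The 2 samples at 39 °C, the nonpermissive temperature at which the antigen loses activity, and the 2 samples at 33 °C, the permissive temperature, had each been kept at that temperature for 3 days. The heat and the loss of antigen activity came together, so their effects cannot be told apart. All cells came from 1 line. Whether replicates came from separate cultures is not stated in the labels. The p-values therefore reflect the spread among these 4 arrays alone, and that spread may be technical.

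IGF1 and IGF2 signal through the receptor tyrosine kinase Igf1r, which passes the signal to the docking protein Irs1 and on to PI3-kinase, AKT and mTOR. The 6 classical binding proteins, Igfbp1 to Igfbp6, hold the ligands outside the cell with high affinity and can block or prolong their action. Igfbp7 is a more distant relative that binds IGFs weakly, and it is known as a secreted matrix-associated protein of endothelium, epithelium and growth-arrested cells. Igf2r is no signalling kinase. It takes up IGF2 for breakdown and, as the cation-independent mannose 6-phosphate receptor, carries newly made hydrolases to lysosomes. Airway epithelium and the fibroblasts below it both make IGF binding proteins.

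At 39 °C Igfbp7 was 5.07-fold higher and Igf2r 2.18-fold and 1.89-fold higher by its 2 probe sets, while 1 probe set of Igfbp6 was 1.69-fold lower. Igf1r and Igfbp4 were above the dim limit given below and did not pass the test. The remaining 5 genes, Igfbp1, Igfbp2, Igfbp3, Igfbp5 and Irs1, had only dim probe sets. A probe set was called dim, and was not tested, when its mean log2 value over the 4 arrays lay under the 40th percentile. That limit was 6.60 on the log2 scale, a normalized intensity of 81.2. It stands in for detection calls, which the sources used do not give, and cannot show whether a gene was expressed. Of the 15 probe sets, 6 from 5 genes were tested and 9 were dim. The test was limma on log2(intensity + 16) after quantile normalization, two-sided, with Benjamini-Hochberg adjustment over 9520 probe sets and a threshold of 0.05, so fold changes are on that scale and understate the change of dim genes. Of the 6 tested, 3 were called higher, 1 lower and 2 neither. Over all tested probe sets 22.5% were called higher, 24.7% lower and 47.2% either way. The median size of the log2 change was 0.83 for the 6 tested and 0.37 for all 9520, and the medians with sign were 0.50 and -0.03. The medians of the 6 count Igf2r by both of its probe sets. By the brightest probe set of each of the 5 genes, the changes were 2.34 (Igfbp7), 0.92 (Igf2r), 0.08 (Igf1r), 0.06 (Igfbp4) and -0.75 (Igfbp6).

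The windows around the transcription starts of the 3 genes that were called are printed to show the sequence that lies there. Each holds 300 bases on the gene's own strand, 250 before and 50 after the start given by RefSeq for build GRCr8. They are chr14:31091486-31091785 on the plus strand, chr1:50526628-50526927 on the plus strand and chr7:135154669-135154968 on the plus strand. Capitals mark 2 motifs on either strand. One is the palindrome made of CACGTG with GT before it and AC after it, known as the CLEAR element of lysosomal gene promoters, and the other is GGGCGG, the GC box bound by Sp1.
Igfbp7: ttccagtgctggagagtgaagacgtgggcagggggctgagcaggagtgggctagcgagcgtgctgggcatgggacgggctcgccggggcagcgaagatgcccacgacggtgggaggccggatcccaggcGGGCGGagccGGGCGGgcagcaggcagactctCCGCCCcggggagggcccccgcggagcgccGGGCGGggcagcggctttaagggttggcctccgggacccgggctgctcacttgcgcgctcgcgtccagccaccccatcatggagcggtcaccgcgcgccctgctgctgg
Igf2r: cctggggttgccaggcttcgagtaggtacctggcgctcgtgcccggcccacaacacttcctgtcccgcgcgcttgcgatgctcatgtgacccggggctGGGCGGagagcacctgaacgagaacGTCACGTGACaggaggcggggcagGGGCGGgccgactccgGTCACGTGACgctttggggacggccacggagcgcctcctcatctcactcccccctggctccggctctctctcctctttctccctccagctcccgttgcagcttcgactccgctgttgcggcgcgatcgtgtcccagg
Igfbp6: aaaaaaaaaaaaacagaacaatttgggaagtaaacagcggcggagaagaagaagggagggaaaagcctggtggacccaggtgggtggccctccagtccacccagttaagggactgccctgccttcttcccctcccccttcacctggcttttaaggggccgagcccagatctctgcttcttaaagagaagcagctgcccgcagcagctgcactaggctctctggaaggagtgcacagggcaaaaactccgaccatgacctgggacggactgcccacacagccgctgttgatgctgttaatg

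The Igf2r window held the palindrome at 2 places, with first bases at -127 and -87 from the start. Of 33469 windows of the same length, 78 (0.233%) held it at all and 3 (0.00896%) held it at 2 or more places. Every such palindrome contains the E-box CACGTG, which 6.42% of windows held. Among the other 9 members none had the longer palindrome, and Igfbp2 and Igf1r had CACGTG at 1 place each. Igfbp7 had GGGCGG at 4 places and Igf2r at 2, while Igfbp6 had none, where 33.1% of all windows held it. Of the other members, Irs1 had it at 3 places and Igfbp2 and Igf1r at 1 each. TATAAA was found in Igfbp4 alone of the 10, starting at -40, and in 14.2% of all windows. The p53 half-site consensus, searched on both strands like the others, was not in any of the 10 windows and was in 7.98% of all windows. The windows of Igfbp7, Igf2r and Igfbp6 were 74.3%, 68.0% and 55.3% G or C, against a median of 51.7% over all windows. The motifs were chosen with the sequences in view, and a match describes letters only.

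**Figure D1:**
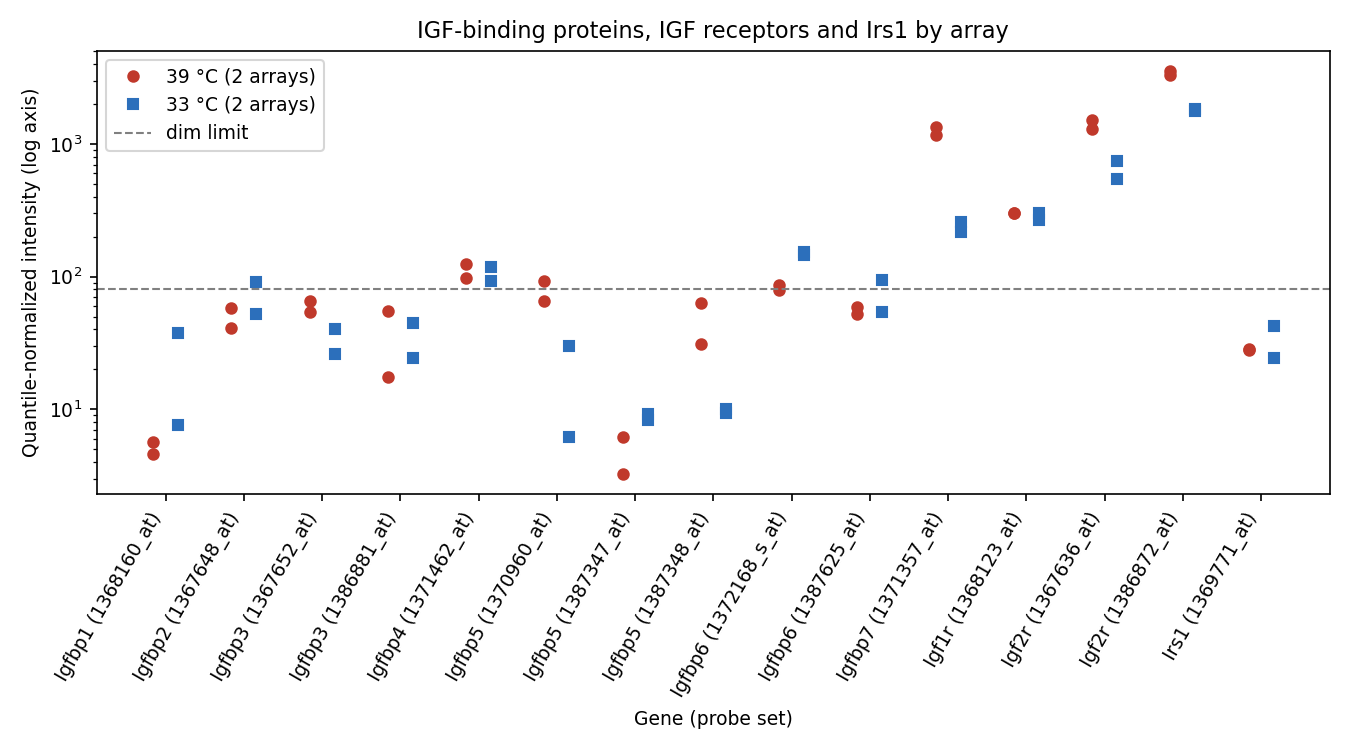
Quantile-normalized intensity (log axis) of the 15 probe sets, with the 2 arrays at 39 °C as red circles left of the 2 arrays at 33 °C as blue squares. The dashed line is the dim limit of 81.2. For Igfbp7 and both Igf2r probe sets all arrays lie above the limit and the 39 °C arrays lie above the 33 °C arrays, while Igfbp1, Igfbp3, Irs1 and 2 Igfbp5 probe sets have all arrays under it.

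Igfbp7 had deposited intensities of 1176 and 1359.6 at 39 °C, against 203.1 and 243.6 at 33 °C (probe set 1371357_at). Both arrays at 39 °C stood far above both at 33 °C, and all 4 stood above the dim limit. The log2 level was 10.32 ± 0.15 at 39 °C and 7.97 ± 0.17 at 33 °C (SD, n = 2 each). The log2 change was 2.34 ± 0.14 (SE, 95% interval 2.04 to 2.65, limma adjusted p 3.703e-07), in position 57 of the 9520 tested probe sets by size of rise. Its log2 change stayed between 2.04 and 2.47 in all 14 alternative ways of processing and kept its call in each. The lowest value came from scaling the arrays to their poly-A spike-in controls, where the median of all tested probe sets was -0.35. Relative to that median the change was 2.39, and it was 2.37 in the fit after quantile normalization.

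Among called probe sets the patterns nearest to that of Igfbp7, by Euclidean distance of centred log2 values over the 4 arrays, belonged to Dsc2, Plau and Xdh, at distances of 0.177, 0.192 and 0.265. Dsc2, a desmosomal cadherin, had 4577.9 and 4758.6 at 39 °C, against 850.1 and 903.3 at 33 °C. Plau, the urokinase-type plasminogen activator, had 9600.2 and 9403.1 at 39 °C, against 1732.9 and 2056.2 at 33 °C. Xdh, the xanthine dehydrogenase of purine breakdown, had 813.3 and 828 at 39 °C, against 130.9 and 127.6 at 33 °C. All 3 stood higher on both arrays at 39 °C, with log2 changes of 2.42, 2.37 and 2.43. With 4 arrays in 2 groups, such nearness says little more than that the changes were of like size.

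Igf2r, the uptake and sorting receptor, was read by 2 probe sets that the annotation ties to the same transcript sequence. The brighter one, 1386872_at, had 3413.4 and 3155.1 at 39 °C, against 1839.7 and 1794.8 at 33 °C. The other, 1367636_at, had 1311.5 and 1517.3 at 39 °C, against 527.6 and 738.6 at 33 °C. In both, each array at 39 °C was higher than each at 33 °C, and no value was near the dim limit. The log2 change was 0.92 ± 0.09 (SE, 95% interval 0.71 to 1.12, limma adjusted p 1.464e-05) for the brighter probe set and 1.12 ± 0.15 (SE, 95% interval 0.80 to 1.45, limma adjusted p 0.0001053) for the other. The intervals overlap widely. The calls were kept in every alternative in which each was tested, with log2 changes of 0.47 to 0.99 for the brighter probe set and 0.77 to 1.34 for the other. Both of the lowest values came from the scaling to spike-in controls. Relative to the median of all probe sets the brighter one was then at 0.82 and the other at 1.12.

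Igf1r, the signalling receptor, did not follow. Its 1 probe set had 314.7 and 314.3 at 39 °C, against 289.3 and 253.3 at 33 °C. The groups did not overlap on the deposited scale, as in 74.8% of tested probe sets, but after quantile normalization the 39 °C arrays were both at 302 and lay between the 33 °C arrays, at 303.4 and 266. The log2 change was 0.08 ± 0.15 (SE, 95% interval -0.25 to 0.42, limma adjusted p 0.6743). Under spike-in scaling it was -0.18, and it was not called in any of 14 alternatives. The interval leaves room for a change of up to 0.42, which is below the lower bound of both Igf2r intervals.

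Irs1, which docks the activated receptor to PI3-kinase, had 32.9 and 27.1 at 39 °C, against 39.9 and 22.8 at 33 °C. All of these are under the dim limit and the groups overlap. Its place in the signal is shared with Irs2, which was above the dim limit here and is described with the pathway below.

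**Figure D2:**
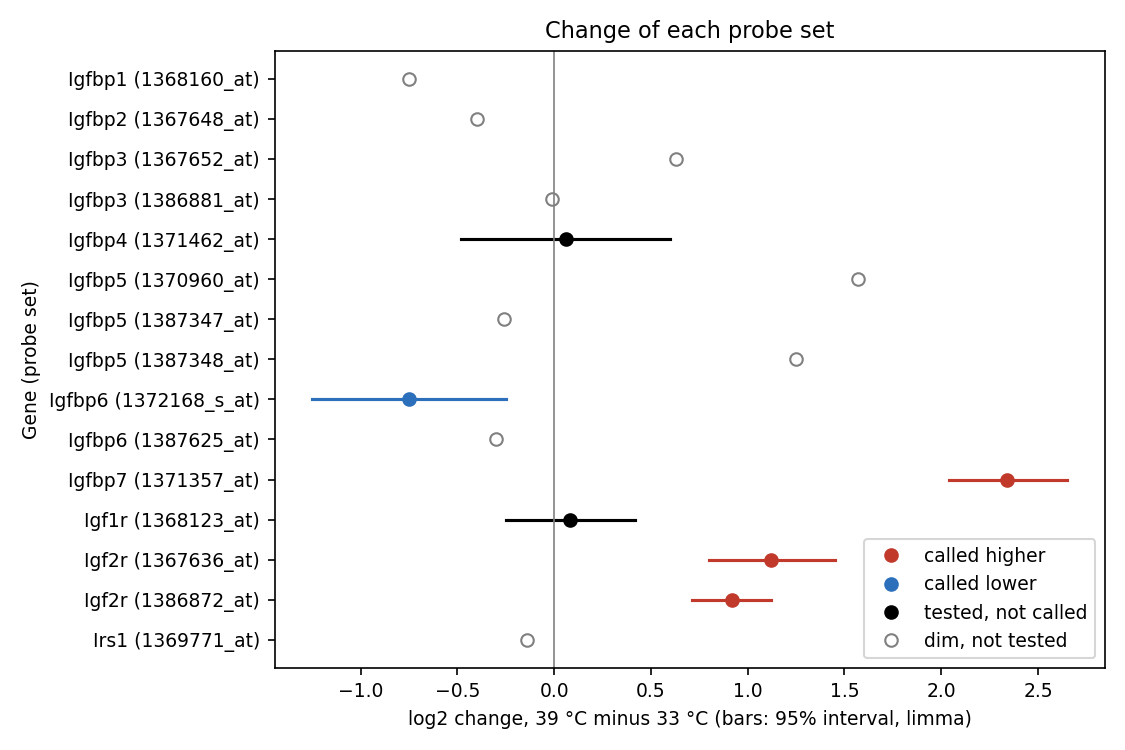
The log2 change, 39 °C minus 33 °C, of each of the 15 probe sets, with 95% intervals from limma for the 6 that were tested and open circles without an interval for the 9 dim ones. Igfbp7 stands at 2.34 and the Igf2r probe sets at 1.12 and 0.92, the called Igfbp6 probe set at -0.75, and the intervals of Igfbp4 and Igf1r include 0.

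Igfbp6, the classical binding protein that prefers IGF2, was read by 2 probe sets that differed in what they showed. The brighter one, 1372168_s_at, had 95.2 and 79.2 at 39 °C, against 136.7 and 146.8 at 33 °C, with both arrays at 39 °C below both at 33 °C. Its log2 level was 6.62 ± 0.07 at 39 °C, at the dim limit, and 7.37 ± 0.06 at 33 °C (SD, n = 2 each). The log2 change was -0.75 ± 0.23 (SE, 95% interval -1.25 to -0.25, limma adjusted p 0.01779). This call was lost without either 39 °C array (adjusted p 0.0552 without replicate 1 and 0.0869 without replicate 2), without 33 °C replicate 2 (0.0685) and when no probe set was filtered out (0.0687), while the log2 change stayed between -1.0 and -0.55. The suffix of the probe set marks probes that may match more than 1 transcript. The second probe set, 1387625_at, was dim at both temperatures, with 66.9 and 49.9 at 39 °C, against 50.9 and 89.7 at 33 °C, and its groups overlap. The patterns nearest to the called Igfbp6 probe set were those of Nol6, a nucleolar protein of ribosome assembly, Slc25a5, the mitochondrial ADP/ATP carrier, and Hypk, a huntingtin-interacting chaperone, with log2 changes of -0.76, -0.73 and -0.75 and distances of 0.0179, 0.0257 and 0.0371.

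Igfbp4, which in other cells is released from its ligand by the protease Pappa, had 107 and 129.2 at 39 °C, against 86.6 and 112.4 at 33 °C. The groups overlap, and all arrays are just above the dim limit. The log2 change was 0.06 ± 0.25 (SE, 95% interval -0.48 to 0.60, limma adjusted p 0.8607). Under spike-in scaling it was -0.16, and the interval does not reach the size of the Igfbp7 or Igf2r changes.

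Igfbp5, a binding protein that attaches to the extracellular matrix, was dim but not flat. Probe set 1370960_at had 73.8 and 95 at 39 °C, against 27.6 and 5.8 at 33 °C. Probe set 1387348_at had 71 and 29.8 at 39 °C, against 8.6 and 9.1 at 33 °C. In both, each array at 39 °C was higher than each at 33 °C, with differences of 1.57 and 1.25 in mean log2 value. The third, 1387347_at, which the annotation ties to the same sequence as 1387348_at, stayed between 3.1 and 8.5 on all 4 arrays, lower at 39 °C by a difference of -0.26. When no probe set was filtered out and the p-values were adjusted over all 15866, the first 2 were called higher (limma adjusted p 0.0395 and 0.0472) and the third was not (0.558). Their sizes rest on the constant added to each intensity: with 1 added the differences were 2.41 and 2.08, and with 64 added 0.81 and 0.57. They also rest on single arrays, since the difference of 1370960_at was 1.04 without 33 °C replicate 2 and 2.11 without 33 °C replicate 1, and that of 1387348_at was 0.85 without 39 °C replicate 1 and 1.63 without 39 °C replicate 2.

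Igfbp3, the main carrier of IGFs in serum and a p53 target in human cells, was dim in both of its probe sets. Probe set 1367652_at had 61.3 and 64 at 39 °C, against 24.3 and 39.2 at 33 °C, and the groups do not overlap. Probe set 1386881_at, tied to the same transcript, had 62.7 and 18.2 at 39 °C, against 22.6 and 43.1 at 33 °C, and the groups overlap. With no filter neither was called (limma adjusted p 0.243 and 0.990).

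Igfbp2, a binding protein abundant in fetal tissue, had 47.2 and 55.7 at 39 °C, against 48.9 and 86.8 at 33 °C, with overlapping groups. Igfbp1, the insulin-regulated binding protein of liver, had 5.3 and 5.5 at 39 °C, against 35.3 and 7 at 33 °C. Most of the Igfbp1 difference, -0.75 in mean log2 value, came from 33 °C replicate 1, without which it was -0.16. In all, the groups did not overlap on the deposited scale in 10 of the 15 probe sets, where the share over all 15866 was 60.2%. In the RefSeq order of coding genes Igfbp1 and Igfbp3 are neighbours on chromosome 14, and Igfbp2 and Igfbp5 are neighbours on chromosome 9. In neither pair did the probe sets of both genes differ in the same direction without overlap. Igfbp2 overlapped between temperatures, and Igfbp1 and the first Igfbp3 probe set differed in opposite directions. All probe sets of these genes were dim, so this cannot show whether neighbouring genes changed together.

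**Figure D3:**
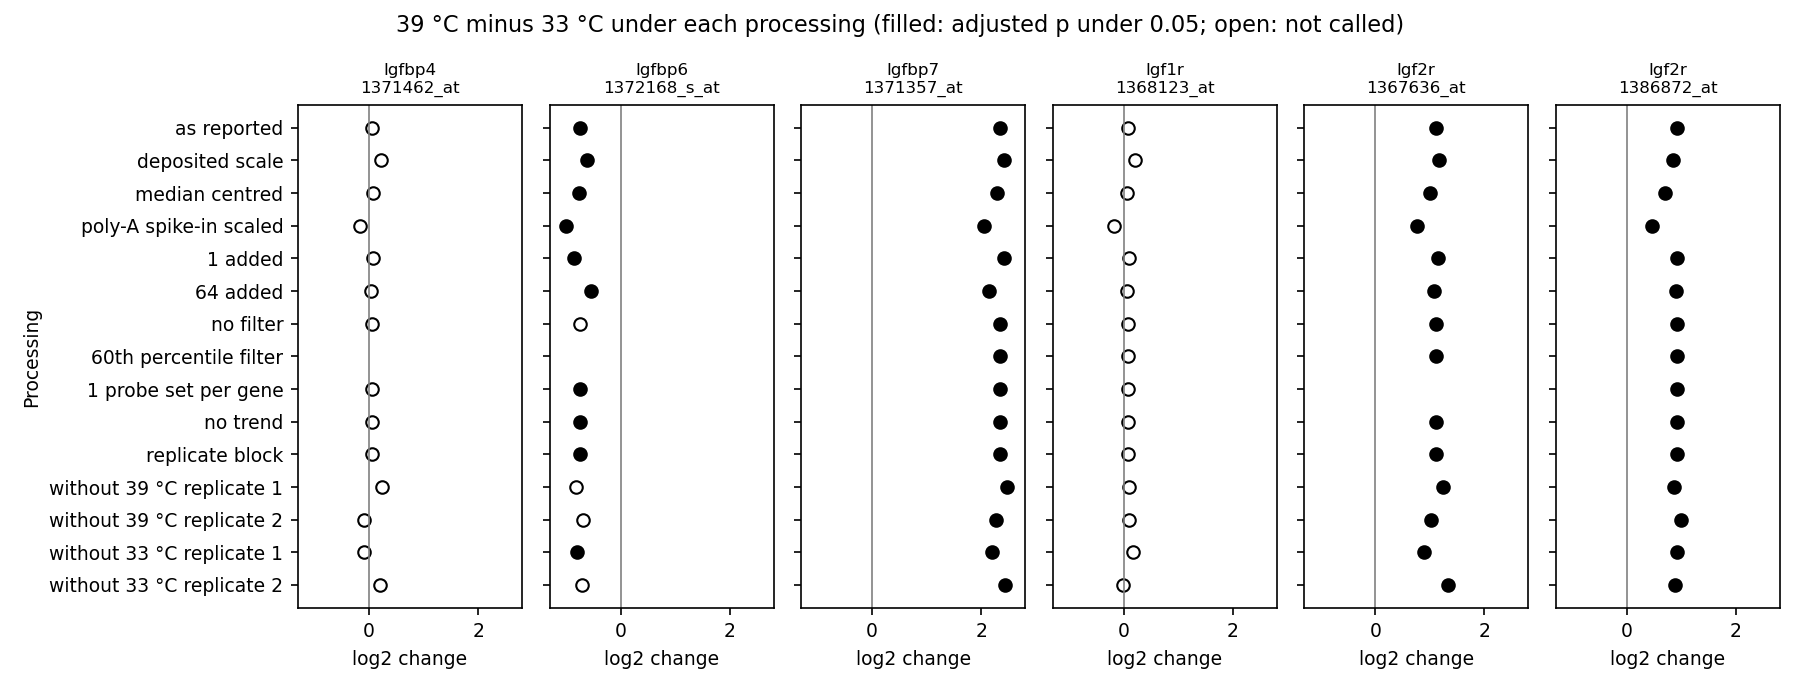
The log2 change, 39 °C minus 33 °C, of the 6 tested probe sets under the processing as reported (top row) and 14 alternatives, filled where the adjusted p is under 0.05, open where not, and absent where the probe set was not tested. Igfbp7 and Igf2r are filled throughout, Igfbp6 loses its call in 4 rows, and Igfbp4 and Igf1r are never filled and lie on both sides of 0.

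The rest of the pathway was described with 4 lists that name 73 genes. Of these lists 1 holds 12 genes related to the members by domain or name, which are counted with the pathway genes here. Probe sets read 58 of them, and 36 were tested. Of these, 11 (30.6%) were higher at 39 °C and 7 (19.4%) lower, and their median log2 change was 0.05. Each gene was read by its brightest probe set. Of all 7016 genes tested that way, 22.9% were higher and 25.9% lower, with a median of -0.04. Under spike-in scaling the counts were 5 higher and 16 lower of 36, beside 1081 higher and 4371 lower of all 9520 tested probe sets under the same scaling.

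The ligands Igf1 and Igf2 were dim. Igf1 had 20.9 and 17 at 39 °C, against 38.3 and 31.5 at 33 °C, and Igf2 had 37.2 and 4.5 at 39 °C, against 38.6 and 31.6 at 33 °C, all under the dim limit in their brightest probe sets. Of the 12 genes with a probe set in the list of ligands and proteases, 9 were dim. Htra1, a secreted serine protease with an IGFBP-like domain, had 6792.8 and 6808.5 at 39 °C, against 10289.2 and 10282.8 at 33 °C. This was a fall, with a log2 change of -0.52 ± 0.08 (SE, limma adjusted p 0.0001987) that was called in all 14 alternatives. The lysosomal protease Ctsd, which can degrade binding proteins and travels by mannose 6-phosphate receptors, had 2533.9 and 2603.3 at 39 °C, against 2186.7 and 1963.6 at 33 °C, with a log2 change of 0.36 (limma adjusted p 0.009351). The Ctsd call was lost under median centring (0.16), without the intensity trend (adjusted p 0.0531) and without 39 °C replicate 2 (0.0556), and under spike-in scaling the change was -0.07. Ins1 was above the limit, with 138.6 and 91 at 39 °C, against 119.4 and 117.4 at 33 °C, and did not pass, at -0.20.

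Among 7 tested genes of other receptors and of sorting, 3 were called higher and 1 lower by their brightest probe sets. Of all 7016 genes tested that way, 22.9% were higher and 25.9% lower. Gga2, an adaptor that gathers mannose 6-phosphate receptors into vesicles at the Golgi, had 1660.7 and 1802.7 at 39 °C, against 523 and 463.7 at 33 °C. Its log2 change of 1.74 ± 0.11 (SE, limma adjusted p 7.717e-07) was called in all 14 alternatives. The related adaptors Gga1 (0.13) and Gga3 (-0.51, limma adjusted p 0.05339) and the second mannose 6-phosphate receptor, M6pr (-0.06, 95% interval -0.26 to 0.14), did not pass. Gnptg, a subunit of the enzyme that adds the mannose 6-phosphate tag, fell by 0.79 on the log2 scale, with 181.9 and 206.1 at 39 °C, against 319.6 and 311.3 at 33 °C. Lrp1, an endocytic receptor, was at 0.67, a call that was lost without 39 °C replicate 2 (0.54), without a filter (adjusted p 0.0584) and under spike-in scaling (0.43). The integrin subunit Itgb1 was called in opposite directions by its 2 probe sets, at 0.38 and -0.27. The first call was lost under median centring (0.14), without the trend (adjusted p 0.0735), without 39 °C replicate 1 (0.23) and under spike-in scaling (-0.09). The insulin receptor Insr was dim by its mean over the arrays, with 99.6 and 86.3 at 39 °C, against 74.5 and 58.1 at 33 °C.

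Inside the cell, 7 of 24 tested adaptors and PI3K-AKT-mTOR genes rose and 4 fell by their brightest probe sets. Of all 7016 genes tested by their brightest probe set, 22.9% rose and 25.9% fell. Some of these calls were not shared by a second tested probe set. Among the rises, the second probe sets of Pdpk1 (0.18), Inppl1 (0.42) and Tsc1 (0.14) were not called. Among the falls, that of Rps6kb1 (-0.28) was not called. Pik3r2, counted as not called, had a second probe set called lower at -0.51. Irs2, the second receptor substrate, had 595.2 and 635.4 at 39 °C, against 316.4 and 271.3 at 33 °C, a log2 change of 0.94 ± 0.14 (SE, limma adjusted p 0.0002135). Ddit4, a stress-induced inhibitor of mTOR complex 1, had 1103.7 and 1177.5 at 39 °C, against 422.2 and 430 at 33 °C, a log2 change of 1.33 ± 0.12 (SE, limma adjusted p 4.931e-06). Foxo3, a transcription factor that AKT keeps out of the nucleus, had 735 and 736.5 at 39 °C, against 400.9 and 289.2 at 33 °C, a log2 change of 1.0 ± 0.16 (SE, limma adjusted p 0.0003471). All 3 stood higher on both arrays at 39 °C. A further pair of Foxo3 probe sets was dim.

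The falls were led by Gsk3b, a kinase that AKT inhibits, with 235.3 and 229.6 at 39 °C, against 553.7 and 532.7 at 33 °C. Its log2 change was -1.28 ± 0.14 (SE, limma adjusted p 2.455e-05), while its paralog Gsk3a was at -0.33 and did not pass. Eif4ebp1, the translation repressor that mTOR phosphorylates, was at -0.69 and Mtor itself at -0.56. Irs2, Ddit4, Foxo3, Gsk3b, Eif4ebp1 and Mtor kept their direction and call in all 14 alternatives. Akt1 (-0.20) and Akt2 (0.10) did not pass by the probe sets used, and a second Akt1 probe set was called lower at -0.31.

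**Figure D4:**
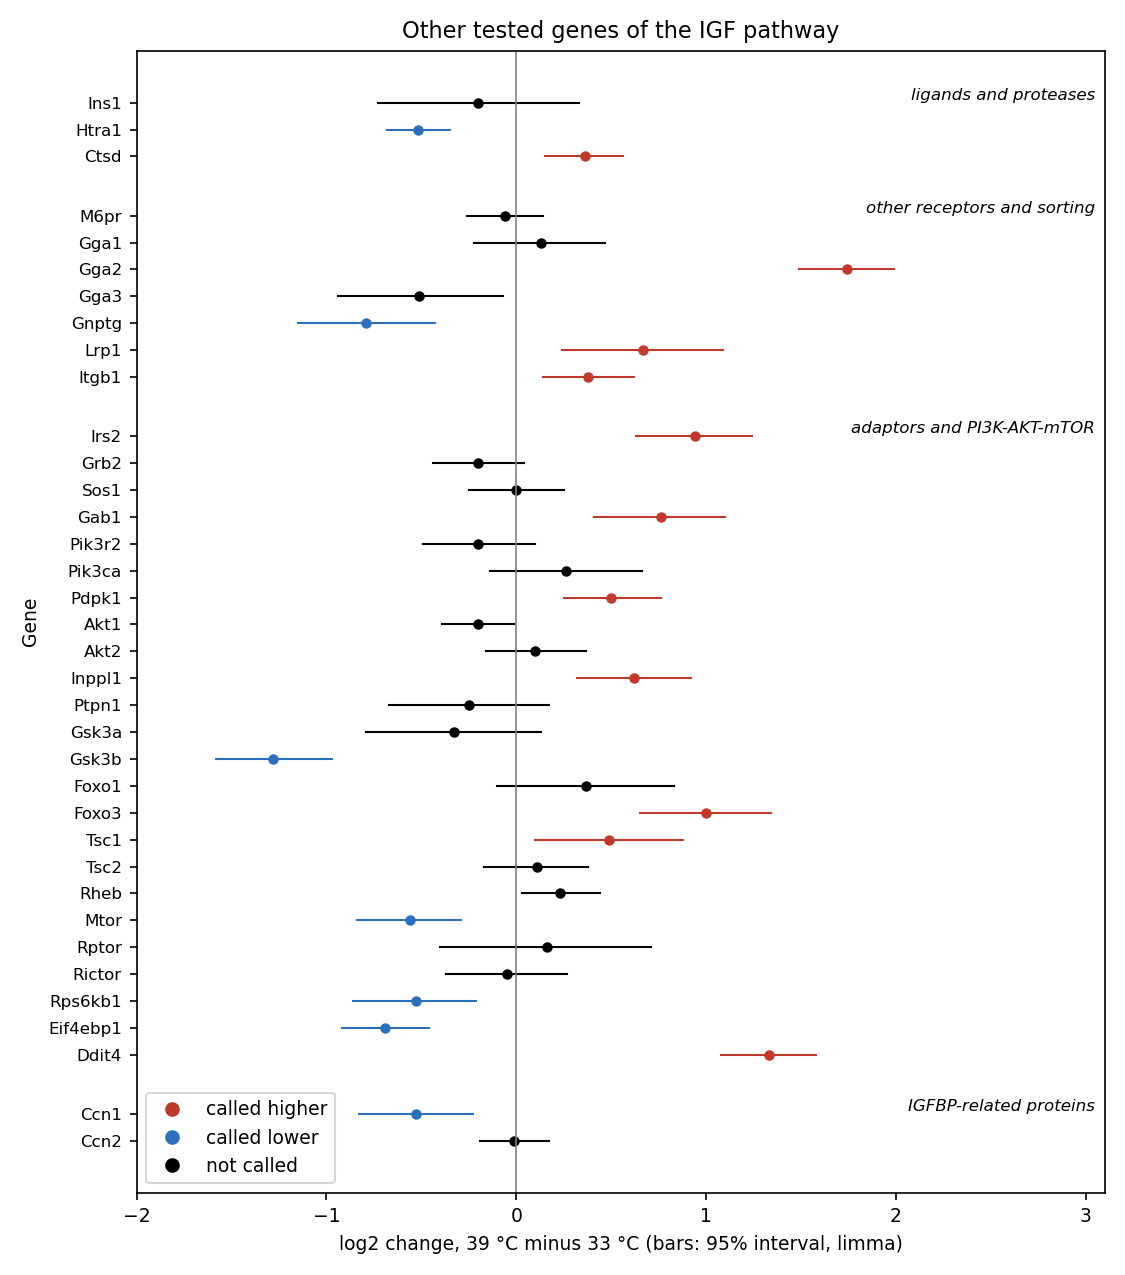
The log2 change, 39 °C minus 33 °C, with 95% intervals from limma, of the 36 tested genes of the 4 pathway lists, red where called higher, blue where called lower and black where not called. Gga2 at 1.74 and Ddit4 at 1.33 lie furthest to the right and Gsk3b at -1.28 furthest to the left.

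Proteins that share the IGFBP-like domain were mostly dim, with 6 of 8 under the limit. Ccn1, a matrix protein of the CCN family, had 314.2 and 302.5 at 39 °C, against 422 and 417.9 at 33 °C, a log2 change of -0.53 (limma adjusted p 0.007576). Ccn2 was at -0.01 and did not pass.

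Markers of other cells were read beside these results, since fibroblasts, smooth muscle and endothelium also make Igfbp4 to Igfbp7. Epithelial markers were strong at both temperatures, with 9 of 10 above the limit, Krt5 dim, and summed intensities of 85024 to 85422.6 at 39 °C and 75772.2 to 79088.6 at 33 °C. Of the 9 tested, 5 were called higher and 2 lower, against 22.9% and 25.9% of all 7016 genes tested by their brightest probe set. The rises were Dsp (1.13), Cldn4 (0.87), Krt19 (0.77), Epcam (0.53) and Krt8 (0.23), and the falls Krt7 (-0.45) and Krt18 (-0.36), as log2 changes. Epcam lost its call under spike-in scaling (0.07). The Krt8 call was lost in 8 of 14 alternatives, among them the deposited scale (0.17), median centring (0.03), no filter, no trend, 3 of the 4 left-out arrays and spike-in scaling (-0.21). Of 10 fibroblast markers 7 were dim, among them Col1a1, Col1a2, Dcn, Lum, Pdgfra and Pdgfrb, and the summed intensity was 12219.5 to 13332.9 at 39 °C and 13238.9 to 14263.3 at 33 °C, most of it from Vim and Fn1. These did not pass the test, but were called lower under median centring (-0.26 and -0.29) and spike-in scaling (-0.50 and -0.52). Col3a1 had 263.5 and 172.8 at 39 °C, against 59.1 and 47.9 at 33 °C, where both arrays are under the dim limit. It entered the test through its 39 °C arrays and was called higher there (limma adjusted p 0.0004321), so the size of its change is not well measured. Smooth muscle markers went both ways, since Myh11 had 132 and 111.7 at 39 °C, against 14.8 and 23.5 at 33 °C, and Tagln had 7.9 and 4.1 at 39 °C, against 252.2 and 306.8 at 33 °C, both dim by their mean and not tested. Des had 179 and 123.9 at 39 °C, against 57.7 and 81.5 at 33 °C, where its mean is dim. It too entered the test through its 39 °C arrays, and its call as higher was lost in 4 of 13 alternatives. Acta2 did not pass at -0.32, but was called lower under spike-in scaling (-0.57). The 6 smooth muscle markers summed to 554.8 to 672.8 at 39 °C and 628.4 to 816.3 at 33 °C. All 4 endothelial markers with a probe set were dim, at sums of 90.6 to 176.3 at 39 °C and 74.6 to 82.3 at 33 °C. Of 7 leukocyte markers 6 were dim and the sum was 844.8 to 883.5 at 39 °C and 926.8 to 988.5 at 33 °C, most of it from Cd14. The part of Col3a1-expressing or other cells in the Igfbp7 result was not tested. In bulk RNA, fewer cells of a kind and less RNA per cell cannot be told apart.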

How the data were processed

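Biotin-labelled cRNA was made from 5 µg of total RNA, per the labels' protocols, and each sample was read on 1 Affymetrix rat array. Each probe set has 1 deposited intensity per array on a linear scale, and the values have a trimmed mean of 500 on every array. The summarising software is not named in the labels or headers used here. Array medians were 174 and 170.7 at 39 °C and 152.4 and 155.4 at 33 °C, and the number of arrays limits the precision.

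Intensities of 15866 probe sets were quantile normalized, taken as log2(intensity + 16) and compared in limma 3.58.1 (R 4.3.3), with an intensity trend, 2 residual and 9.23 prior degrees of freedom, over the 9520 probe sets at or above the 40th percentile of the mean. Symbols came from GEO's platform annotation (12783 probe sets with 1 symbol, 312 with several, 2771 with none listed), checked by Entrez identifier against RefSeq GRCr8, with 0 changed. In the pathway and marker lists the brightest probe set stood for a gene. Named were all members, the 3 largest called rises and falls of each pathway list, the 3 nearest patterns and the 2 brightest markers of each list. Other genes (Insr, M6pr, Gga1, Gga3, Ins1, Akt1, Akt2, Gsk3a, Pdpk1, Inppl1, Tsc1, Rps6kb1, Pik3r2, Ccn2, Ccn4, Ccn5, Esm1, Kazald1, Hdac5, Aars1, Ap5z1, Sgo1, Krt5, Krt7, Krt18, Krt19, Cldn4, Dsp, Col3a1, Tagln, Myh11 and dim list members) were named after their values were seen. Members, lists and tests were chosen with earlier results of these data known. The scripts were tested on simulated data of 9520 probe sets. They recovered 53.7% of 67 planted log2 changes of 0.5, 97% of 67 of size 1 and 100% of 66 of size 2. In the same run 18 probe sets without a planted change were also called. A change near 0.5 can therefore be missed, and some calls can be false. Promoter windows came from RefSeq, with all 10 members matched. Python 3.11.15 with matplotlib 3.10.9 drew the figures.

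The correlation of same-numbered deviations was 0.00684, so arrays with the same replicate number showed no shared deviation. Whether cultures or array runs were paired is not stated in the labels, and this value cannot show it.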

Additional observations from a re-analysis of the deposited data

How the results depend on the processing

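Alternatives covered scaling (as deposited, median centring, 24 poly-A spike-in probe sets), the constant (1 or 64), the filter (none or the 60th percentile), 1 probe set per gene, a fit without the trend, a block for the replicate number, and each array left out in turn. The filter, 1 probe set per gene, the trend and the block cannot alter the size of a log2 change here, only its test. Igfbp7 and Igf2r kept direction and call wherever they were tested, and under the replicate block, with 2316 probe sets higher and 2539 lower, no member's call changed. With the block the limma adjusted p of Igfbp7 was 2.87e-57, against 3.7e-07 as reported. A value that low from 4 arrays rests on spread pooled over probe sets, so the calls kept there add little. Of the 15 member probe sets 6 were tested, and of these 3 were called higher and 1 lower. Without a filter all 15 were tested, and 5 were higher and 0 lower. Over all 15866 probe sets that setting gave 1919 higher and 2007 lower. The added member calls were of Igfbp5 probe sets that were dim at both temperatures. With the 60th percentile, which leaves Igfbp6 out, 0 member probe sets were lower. Leaving out an array gave 0 to 1 lower. The change of Igfbp4 was -0.16 with spike-in scaling and ran from -0.10 to 0.23 over the left-out arrays, and that of Igf1r was -0.18 and ran from -0.01 to 0.17. Of all 9520 tested probe sets 2144 were higher and 2351 lower as reported (47.7% of calls higher). On the deposited scale 53.8% of calls were higher. Median centring gave 1823 higher and 3014 lower (37.7%). Spike-in scaling gave 1081 higher and 4371 lower (19.8%). Among pathway genes it gave 5 higher and 16 lower, median centring 12 lower, and leaving out an array 6 to 13 higher and 6 to 8 lower, the 6 higher being without 39 °C replicate 2. Under spike-in scaling and median centring the calls over all probe sets moved toward lower too, so these counts show nothing particular to the pathway. Leaving out an array leaves 1 array at that temperature, and fewer of all tested probe sets were then called higher. Under spike-in scaling Ctsd was at -0.07, Itgb1 at -0.09 and Krt8 at -0.21. Of epithelial markers 3 were then higher and 4 lower, against 5 and 2. Of other markers, 2 were higher and 0 lower as reported; spike-in scaling gave 1 higher and 4 lower, median centring 3 lower, the 60th percentile 0 higher, 64 added or no filter 1 lower, and leaving out an array 1 to 2 higher and 0 to 1 lower. Vim ran from -0.10 to 0.09 over the left-out arrays, and Vim, Fn1 and Cd14 became called lower under median centring and spike-in scaling. The cause of these shifts was not tested.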

Other observations

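Genes whose promoter windows hold the palindrome (CACGTG with GT before it and AC after it) were called higher and lower in equal number. Of 77 such genes 40 had a probe set and 39 were tested. At 39 °C 8 (20.5%) were higher and 8 (20.5%) lower, with a median log2 change of 0.18, against 22.9% and 25.9% and a median of -0.04 over 7016 genes each read by its brightest probe set. Besides Igf2r the windows of Ap5z1 and Sgo1 held it at 2 places, and neither has a probe set with a single symbol. Among those called, the histone deacetylase Hdac5 was at 1.03 and the alanyl-tRNA synthetase Aars1 at -1.12. This list was made after the sequences and the Igf2r values had been seen, so it carries no test.

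Some relatives of the IGF binding proteins were dim on average yet differed between temperatures without overlap, as did 60.2% of all 15866 probe sets. Ccn5, a CCN protein without the C-terminal domain of the others, was higher at 39 °C. It had 226.9 and 184.5 there, against 40.4 and 7.7 at 33 °C. The kazal-type protein Kazald1 had 42.5 and 48.4 at 39 °C, against 9.4 and 11.7 at 33 °C. Esm1 had 5.7 and 4.6 at 39 °C, against 3 and 4.5 at 33 °C. Ccn4 went the other way, with 71.5 and 69.5 at 39 °C, against 83.4 and 80.3 at 33 °C. The remaining dim relatives, Ccn3 and Igfbpl1, overlapped between temperatures. None of these genes was tested.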
